A study of Rattus norvegicus with 6 samples.

Results

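The region described here is a stretch of 200000 bases of chromosome 1 that was expected to hold the interferon-induced Ifit family. It begins 44663 bases upstream of the first locus described below. The tables list gene loci, each an assembled gene with its transcript start and end events. A locus was taken as a member where every start and end event lay inside these limits, and 2 of 13685 loci qualified, XLOC_001939 and XLOC_001940. RNA of vascular smooth muscle cells (VSMCs), which the labels give as aorta of SD (Sprague-Dawley) rat, was sequenced in 6 libraries. There were 2 control libraries, labelled wild type, and 2 libraries for each of 2 interference sequences against SLC2A10, the gene of glucose transporter GLUT10, labelled SLC2A10-/- and called sequence 2 and sequence 3 here from a reading of the sample titles. The paper describes shRNA virus and control virus in cultured cells of passage 3, whereas the titles name siRNA, the extraction text names frozen aorta and the design text names mice. The labels do not say whether replicates were separate cultures, so the p-values speak only of variation among these libraries, which may be technical. In such bulk samples, fewer cells of a type and less RNA per cell cannot be told apart.

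Ifit proteins are interferon-induced proteins built of tetratricopeptide repeats. Cells make them after interferon signalling or after sensing of viral RNA, and they bind RNA and restrict translation of viral messages. IFIT1 recognises RNA ends that lack the cap methylation of the cell's own messages, and IFIT2 and IFIT3 associate with it in complexes. The interferon-stimulated response element is a DNA motif known from promoters of such genes.

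The loci carry the Ensembl IDs ENSRNOG00000036604 (XLOC_001939) and ENSRNOG00000019050 (XLOC_001940). The reference table used here holds no Ensembl IDs, so a gene symbol was found for 0 of the 2 IDs, and neither the level of SLC2A10 nor cell type markers were analysed. The directions below therefore rest on the labels. The paper states that qPCR was used to check the interference, and its text gives no values. From KEGG enrichment, it reports that immune-related pathways were broadly activated after knockdown. Both loci described here were instead lower in the libraries labelled SLC2A10-/-. Whether these loci belong to those pathways was not tested, and a pathway result is not a level of single loci. In RefSeq on the assembly GRCr8, the protein-coding genes follow each other as Lipa, Ifit2, Ifit3, Ifit1bl, Ifit1 and Slc16a12. XLOC_001939 ran over 6064 bases from its start event to the close of its end event, and XLOC_001940 over 5149 from its first start, leaving out a second start listed in 1 library, with which its events spanned 34375. Ifit2 is 6065 bases long in RefSeq and Ifit3 is 5144. Among 23154 protein-coding genes, 1 neighbouring pair, Ifit2 and Ifit3, had lengths within 5 bases of both spans. Ifit3 lies exactly at this limit, and only with the second start left out. A likeness of lengths on another assembly does not pair the IDs, so the loci are called by their own IDs below.

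The loci were not paired with gene symbols, and a part of the response element in their fall was not tested. Promoter sequences of the family are shown as background only. They come from RefSeq on GRCr8 and hold the 250 bases before each start, with capitals marking the core of that element, searched on both strands as GAAA, any 2 bases and GAAA again (TTTC, any 2 bases and TTTC where read from the other strand). The Ifit3 sequence is chr1:241527076-241527325 on the plus strand, and the Ifit1bl sequence is chr1:241543556-241543805 on the minus strand.
Ifit3: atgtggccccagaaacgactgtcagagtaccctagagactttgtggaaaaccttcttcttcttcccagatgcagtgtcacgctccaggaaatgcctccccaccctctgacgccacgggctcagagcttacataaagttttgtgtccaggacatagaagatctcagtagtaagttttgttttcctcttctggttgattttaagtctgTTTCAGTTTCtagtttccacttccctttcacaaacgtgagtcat
Ifit1bl: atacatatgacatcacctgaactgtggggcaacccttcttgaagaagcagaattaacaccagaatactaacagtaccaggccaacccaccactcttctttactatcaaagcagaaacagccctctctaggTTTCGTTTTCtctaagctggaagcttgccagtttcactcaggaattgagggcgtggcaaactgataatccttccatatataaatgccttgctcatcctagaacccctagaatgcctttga
The match began 44 bases before the start in Ifit3 and 120 bases before it in Ifit1bl. A second Ifit1bl promoter held 0 matches on either strand. Of 33469 promoter windows of the same length, 3.41% held at least 1 match. Ifit2 and Ifit1 had no entry in the promoter set used, so they were not searched and are named only. A match is a description of letters and does not show binding in these cells.

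XLOC_001939 lay on the plus strand from 252894663 to 252900726, and the tables' genome build is not stated in the sources read for this work. Its start event, read here as the first exon, covered 216 bases and its end event, read as the last exon, covered 3193 bases, with 2655 bases between them. XLOC_001940 lay on the same strand, 5507 bases downstream, with a start event at 252906234 of 156 bases and an end event of 1889 bases closing at 252911382, with 3104 bases between them. In the events listed in all 6 libraries, both loci had a short first exon and a long last exon. XLOC_001940 had a second start, listed in 1 library, that lay downstream of its end event. Neither locus had an exon skipping, intron retention or alternative exon end event in any of the 6 libraries. This was common, since 55.5% of the 10648 loci tested had 0 such events.

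**Figure D1:**
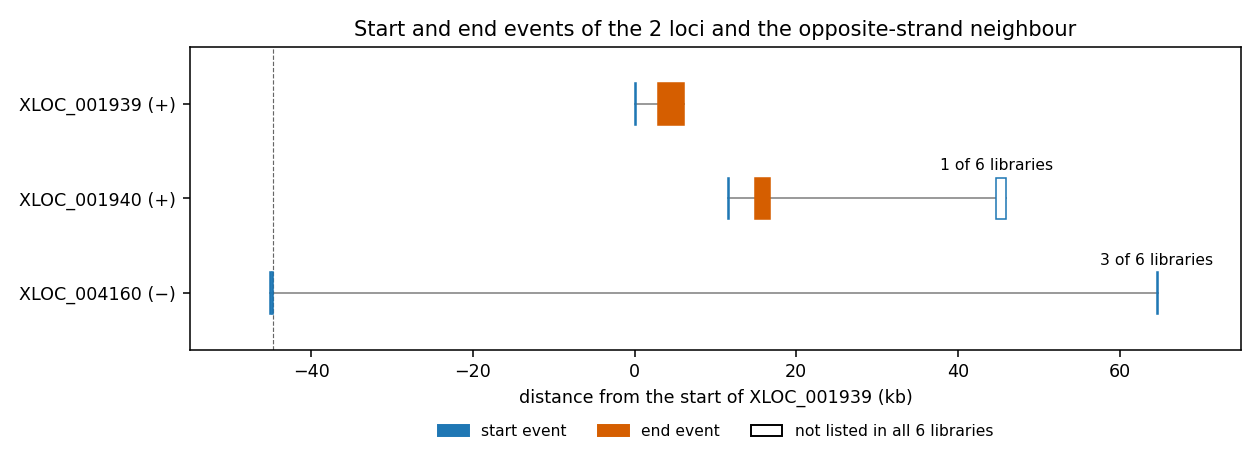
Start events (blue) and end events (orange) of XLOC_001939 and XLOC_001940 and of the opposite-strand neighbour XLOC_004160, drawn to scale against the distance in kb from the start of XLOC_001939. Open boxes were not listed in all 6 libraries, and the dashed line is the lower limit of the region. The 2 loci lie side by side, while the second start of XLOC_001940 lies 33137 bases downstream of its first.

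Both loci were among the most abundant transcripts of the control libraries and were far lower in all 4 knockdown libraries. Levels are FPKM, a measure corrected for transcript length and for how many fragments a library mapped. For each locus the FPKM of its starts and of its ends was summed, and the larger sum was taken. XLOC_001939 had an FPKM of 748 and 641 in control replicates 1 and 2. It had 11.6 and 11.8 with sequence 2, and 16.6 and 13.1 with sequence 3. The lowest control thus stood above every knockdown library. The control mean was 695 ± 75.1 (SD, n = 2). Sequence 2 averaged 11.7 ± 0.106 (SD, n = 2) and sequence 3 averaged 14.9 ± 2.47 (SD, n = 2). The mean of controls was thus 59.4 times that of sequence 2 and 46.7 times that of sequence 3.

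XLOC_001940 had the larger fold difference. Its FPKM was 873 and 799 in the controls, 0.670 and 0.526 with sequence 2, and 3.23 and 2.53 with sequence 3. Both controls were above all 4 knockdown libraries. The sequences are compared with each other further below. The control mean was 836 ± 52.8 (SD, n = 2). Sequence 2 averaged 0.598 ± 0.102 (SD, n = 2) and sequence 3 averaged 2.88 ± 0.497 (SD, n = 2). The mean of controls was thus 1398 times that of sequence 2 and 290.0 times that of sequence 3. Between single libraries the ratio ran from 1192 to 1662 with sequence 2 and from 247 to 345 with sequence 3. Levels with sequence 2 were under 1 FPKM and no counts were available, so the size of that ratio is uncertain. Controls above all 4 knockdown libraries were found in 11.2% of the loci tested.

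**Figure D2:**
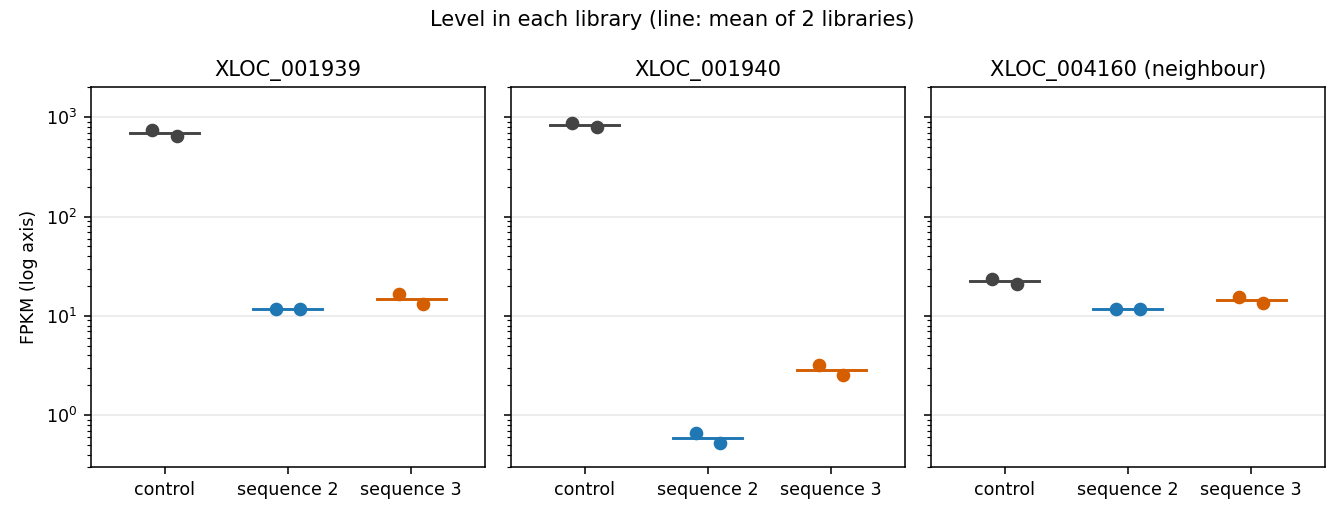
FPKM (log axis) of XLOC_001939, XLOC_001940 and the neighbour XLOC_004160 in each library, with points for libraries and a line for the mean of the 2 libraries of a group. XLOC_001940 starts from 836 in controls and reaches 0.598 with sequence 2, while XLOC_001939 stays at 11.7 there.

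The place of the loci among all 13685 loci moved accordingly. XLOC_001939 was the 38th and 67th highest locus in the controls and ranked between 3218 and 4151 in the knockdown libraries. It made up 0.251% and 0.201% of the summed FPKM of the controls and 0.00357% to 0.00509% in the knockdown libraries. XLOC_001940 ranked 29th and 43rd in the controls, 10621 and 10974 with sequence 2, and 8022 and 8429 with sequence 3. In the knockdown libraries XLOC_001939 stood at a moderate level, at or above 69.7% or more of loci. XLOC_001940 lay below the middle of the list in all 4 of them.

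Knockdown was compared with control by limma on log2(FPKM + 1) across the 10648 loci that reached 1 FPKM in 2 or more libraries, with Benjamini-Hochberg adjustment over all of them. Both members passed this filter and both were lower. At an adjusted p under 0.05 the share of loci called lower was 2.86%. The log2 change of XLOC_001939 was -5.62 (standard error 0.130, adjusted p = 1.96e-05 from limma), and that of XLOC_001940 was -8.39 (standard error 0.122, adjusted p = 4.57e-06 from limma). They were the 14th and the 3rd largest falls of all loci tested, where the median log2 change was 0.0819. This scale understates the change of XLOC_001940, whose level with sequence 2 was under the pseudocount of 1. With a pseudocount of 0.1 its log2 change was -9.19.

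**Figure D3:**
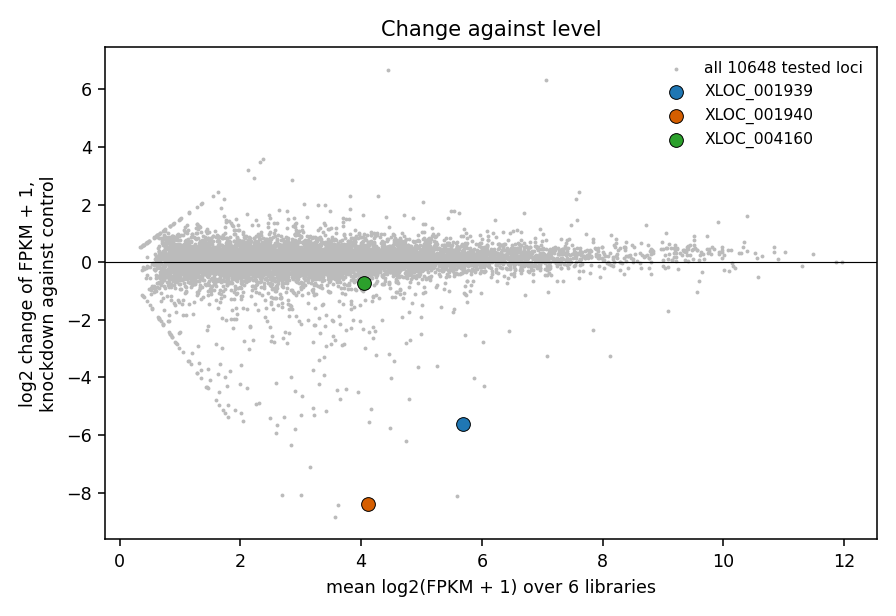
Log2 change of FPKM + 1 in knockdown against control (vertical axis) and mean log2(FPKM + 1) over the 6 libraries (horizontal axis) for 10648 loci in grey, with XLOC_001939, XLOC_001940 and the neighbour XLOC_004160 coloured. XLOC_001940 lies at -8.39 and XLOC_001939 at -5.62, both far below the bulk of loci.

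Each sequence was also set against the same 2 control libraries, so these comparisons share controls. With sequence 2, XLOC_001939 changed by -5.77 (standard error 0.150, adjusted p = 3.10e-05 from limma) and XLOC_001940 by -9.03 (standard error 0.141, adjusted p = 7.90e-06 from limma), where 2.45% of loci were called lower. With sequence 3, XLOC_001939 changed by -5.46 (standard error 0.150, adjusted p = 5.42e-05 from limma) and XLOC_001940 by -7.76 (standard error 0.141, adjusted p = 1.44e-05 from limma), where 2.38% were called lower. Both loci were thus lower with either sequence.

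The sequences were then compared directly, a test in which 0.0939% of loci passed in either direction. XLOC_001940 was higher with sequence 3 than with sequence 2 by 1.28 on the log2 scale (95% interval 0.927 to 1.63), and this missed the threshold after adjustment (unadjusted p = 0.000135, adjusted p = 0.0848 from limma). With a pseudocount of 0.1 the difference was 2.09 and passed (adjusted p = 0.0398 from limma). Under the other planned settings with 2 libraries per group it did not, with adjusted p-values from limma of 0.0505 to 0.427. The highest came from the 4 libraries of the comparison alone, a fit that called 0 loci in either direction. Leaving out 1 library gave differences of 1.15 to 1.41. Summed per Ensembl ID, which adds another locus described below, the difference was 0.459 (adjusted p = 0.735 from limma). XLOC_001939 differed by 0.31 (95% interval -0.0572 to 0.687, adjusted p = 0.734 from limma), so a difference of either sign is within its interval.

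The 2 loci were also set against each other within each library. XLOC_001940 stood at 1.17 and 1.25 times the FPKM of XLOC_001939 in the controls, at 0.0577 and 0.0447 times with sequence 2, and at 0.195 and 0.193 times with sequence 3. The loci were nearly equal in controls, whereas XLOC_001939 was the higher one in every knockdown library. The log2 difference of FPKM + 1 between them was 0.27 in controls and -2.51 in the knockdown libraries. With sequence 2, XLOC_001940 lay under the pseudocount of 1, so this scale understates the difference. An exact permutation test over the libraries gave a two-sided p = 0.133 (2 against 4 libraries, 15 arrangements) when computed as the one-sided p multiplied by 2, and p = 0.0667 when arrangements were counted by the absolute difference. Each is the smallest value its way of counting can give in this design. This comparison was chosen after the values were seen.

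Start and end events gave a finer view of XLOC_001940. In the 4 knockdown libraries its single start and single end had the same FPKM. In control replicate 1 the start had 873 and the end 741, a difference of 132 or 15.1% of the start. Control replicate 2 listed a second start, at 252939371 and 1238 bases long, with an FPKM of 80.3, beside 718 for the first start and 718 for the end. That second start was listed in 1 of 6 libraries. Since the level is the larger sum, it added 11.2% to the level of control replicate 2. With ends alone the log2 change of XLOC_001940 was -8.20 (adjusted p = 5.72e-06 from limma).

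Another locus, XLOC_004160, reached into the region without being a member. It lay on the minus strand, and its main start event closed 96 bases outside the lower limit. The tables give it ENSRNOG00000019050, the ID of XLOC_001940, although the loci lie on opposite strands. It had 3 start events and 0 end events. Its main start, at 252849767, had an FPKM of 18.7 and 17.9 in controls. That start had 11.5 and 8.26 with sequence 2, and 11.6 and 10.7 with sequence 3. A weaker start, at 252849619, had 4.91 and 3.17 in controls, and knockdown libraries had 0.335 to 0.945. Its remaining start, at 252959265 inside the region, was not listed in either control or in replicate 1 of sequence 2, and had 2.96 in replicate 2 of sequence 2 and 3.11 and 1.84 with sequence 3.

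Summed, XLOC_004160 averaged 22.3 ± 1.80 FPKM in controls (SD, n = 2) and 13.1 ± 1.82 with knockdown (SD, n = 4). Its log2 change was -0.73 (standard error 0.112, adjusted p = 0.0223 from limma), a small fall beside those of the 2 members. The call was lost when either control or either library of sequence 2 was left out. Fewer of all tested loci were called in those fits too, in both directions, so a lost call is not particular to XLOC_004160. The call of XLOC_004160 held without replicate 1 or replicate 2 of sequence 3. The log2 change lay between -0.81 and -0.65 in these 6 fits. When levels were summed per Ensembl ID, which adds XLOC_004160 to XLOC_001940, the log2 change of that sum was -5.78 (adjusted p = 8.06e-06 from limma). A level read by ID alone would thus mix 2 loci of opposite strands.

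The fall was compared with the loci on either side, up to 500000 bases from the limits. XLOC_004160 included, 6 loci lay there and all were tested. Of these 1 was lower, XLOC_004160, and 0 were higher by limma at an adjusted p under 0.05, where 2.86% of all loci tested were lower and 2.25% higher. Without adjustment, 2 of 6 had a p under 0.05, as did 21.8% of all loci tested. Their median log2 change was 0.13, against 0.0819 for all loci. The second of the 2, XLOC_004156, lay on the minus strand from 252537615 to 252550394 and was as abundant as the members in controls. Its FPKM was 736 and 754 in controls, 1105 and 1025 with sequence 2, and 949 and 1035 with sequence 3. Its log2 change was 0.46 (standard error 0.104, adjusted p = 0.0718 from limma), which missed the threshold. The remaining 4 flanking loci had log2 changes between -0.22 and 0.20.

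**Figure D4:**
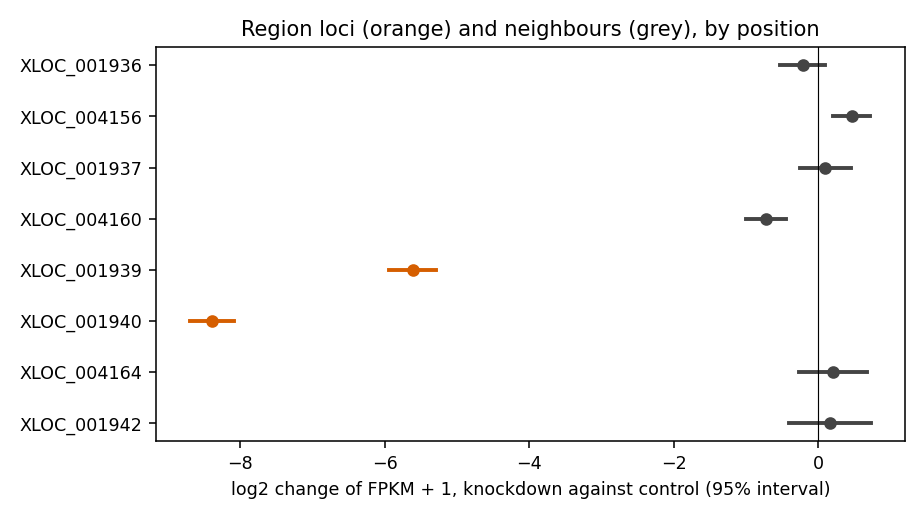
Log2 change of FPKM + 1 in knockdown against control with its 95% interval from limma, for the 2 region loci (orange) and the 6 loci within 500000 bases of the region (grey), in order of position. XLOC_001939 and XLOC_001940 lie at -5.62 and -8.39, and the flanking loci between -0.73 and 0.46.

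Loci elsewhere in the genome had profiles close to that of XLOC_001940, the member with the larger change. Likeness was Pearson's r of log2(FPKM + 1) over the 6 libraries, among 4676 loci outside the region with a mean FPKM of at least 10. The libraries fall into controls and knockdown libraries, so r mainly reflects that contrast, and 164 of these loci had an r over 0.95. The 2 members had an r of 0.996 with each other. The closest locus was XLOC_011562, on chromosome 12 from 47444104 to 47456894, at 0.9999. It had an FPKM of 107 and 109 in controls, 0.524 and 0.446 with sequence 2, and 1.82 and 1.39 with sequence 3. XLOC_009883, on chromosome 11 from 37891156 to 37914983, followed at 0.9998, with 760 and 651 in controls, unlisted with sequence 2, and 1.43 and 1.26 with sequence 3. XLOC_023777, on chromosome 2 from 248276709 to 248293784, came next at 0.9997, with 332 and 299.9 in controls, 3.62 and 3.60 with sequence 2, and 6.99 and 6.21 with sequence 3. These loci were chosen for this likeness, so their profiles are a description.

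The libraries listed 11564 to 11856 loci and 12837 to 13826 start events, the fewest in replicate 2 of sequence 3. Their summed FPKM ran from 298386 in control replicate 1 to 368014 in replicate 2 of sequence 3. Across the tested loci the controls correlated at 0.966 with each other, a control with a knockdown library at 0.899 to 0.920, and knockdown libraries with each other at 0.947 to 0.970 (Pearson's r over loci; loci are not independent).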

How the data were processed

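RNA-seq was analysed in 6 rat VSMC libraries, 2 for each of 3 groups read from the sample titles. For each library the authors deposited a table of FPKM values, 1 per start, end or splicing event. Among the tools in the submitters' processing notes are HTSeq 0.6.1, SAMtools 0.1.18, StringTie 1.0.4, HISAT2 2.0.1, Trimmomatic 0.30 and bcl2fastq 2.17.1.14, without stated roles. Genome build, annotation, strand protocol and event program were not given in the sources used here. Rows repeating an event were dropped, and an unlisted locus was set to 0, which can be a failed estimate. The model, fitted with limma 3.58.1 (R 4.3.3), used a mean-variance trend and a mean for every group. Its code was also run on simulated data, drawn as independent normal values on the log2 scale. That run does not test whether the real libraries meet the model's assumptions. Python 3.11.15 with pandas 2.3.3 read the tables. Depth is unknown: of 882 events with an FPKM under 0.5 in both controls, 0.567% shared the most common ratio of values (to 3 decimals), so no steps of whole reads were seen.

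The region, the flanks, the likeness rule and the settings were chosen with earlier results of these data known. Every member was named, with the 3 loci most like the member that changed most and the called flanking loci. XLOC_004156 and the other flanking loci were described after their values were seen. The planned interferon gene list and cell type markers were not analysed here, because IDs were not paired with symbols.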

Additional observations from a re-analysis of the deposited data

How the results depend on the processing

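Both loci of the region were lower in the pooled comparison and with either sequence under every alternative run, namely other pseudocounts, filters, scalings, thresholds, start or end sums, sums per Ensembl ID, a fit without the trend, the 4 libraries of a comparison alone and each library left out. Leaving out 1 library gave log2 changes of -5.73 to -5.50 for XLOC_001939 and -8.46 to -8.33 for XLOC_001940 in knockdown against control, with adjusted p from limma up to 0.00398 and 0.00280. Between the sequences 0 loci of the region were called, but 1 was higher with sequence 3 at a pseudocount of 0.1 and 1 at an unadjusted p under 0.05, in both cases XLOC_001940. A smaller pseudocount widens differences of levels near 1. Counting any start or end event that overlapped the region gave 3 loci in place of 2. Same-numbered replicates were not paired, since their deviations correlated at -0.0613, 0.178 and -0.0817 over the 3 pairs of groups. Under a replicate block XLOC_001940 changed by -8.39 (adjusted p = 5.97e-05 from limma), and the block changed no call in the region. Where 1 library of a group remained, its spread was assumed equal to that of the other groups. No limit from depth can be stated, because the tables hold no counts.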
